A study of Mus musculus with 4 samples.

Results

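Ifitm1, Ifitm2 and Ifitm3 are the 3 genes described here. They encode small membrane proteins of the interferon-induced transmembrane family. The members were taken as every probe set whose single platform gene symbol was one of these names, which gave 3 probe sets, 1 per gene, of 28898 probe sets with 1 named gene and 17097 named genes. They were measured in J1 mouse embryonic stem cells, a pluripotent line. The cultures had no feeder layer and were kept in medium with LIF and fetal calf serum. A knockdown and PRDM14 overexpression were combined into 4 conditions. The conditions were Tet1/Tet2 knockdown with PRDM14, Tet1/Tet2 knockdown, scramble with PRDM14, and scramble. Per the labels, all RNA came from a line named iP14, with or without doxycycline, carrying the control or the combined Tet1/Tet2 short hairpin. The scramble sample is also called wild type in its labels. PRDM14 is a DNA-binding factor known from pluripotent cells and the germ line. TET1 and TET2 oxidise 5-methylcytosine in DNA, and the series asked what they do in gene regulation by PRDM14. How the PRDM14 line and the knockdown lines were derived, and whether each was 1 clone, is not given in the sources used here.

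IFITM proteins sit in the plasma membrane and in endosomes, where they hinder the fusion of enveloped viruses with the cell. Interferons raise their transcription in most cell types through JAK kinases and STAT factors, whereas pluripotent stem cells are known to express several of them without interferon. In the mouse embryo Ifitm3, also known as fragilis, marks the epiblast cells that respond to BMP signals and become competent to form primordial germ cells. Mice that lack the whole Ifitm cluster nevertheless form germ cells and are fertile.

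Each condition had 1 Affymetrix array, so no difference could be set against a spread between cultures, and the precision of a value could not be measured. Values are log2 probe set signals, on which a difference of 1 is 2-fold. A gene was called at a difference of 2-fold or more, provided that 1 of the 2 arrays reached an expression filter of 5.40. The filter was the median signal over named probe sets and arrays. The array medians lay between 5.09 and 5.11. All 9 measured embryonic stem cell markers, among them Pou5f1, Sox2 and Nanog, were above the filter on all 4 arrays. Of 12 fibroblast markers 8 were below it on every array, including Col1a1 and Col3a1. Of 10 endothelial and blood markers 7 were below it, including Cdh5 and Ptprc. Tet2 read 8.15 and 7.50 on the knockdown arrays with and without PRDM14, against 9.33 and 8.46 on the matching scramble arrays. Prdm14 read 4.35 to 4.83, below the filter on all arrays, so its probe set gave no check of the PRDM14 labels, on which every PRDM14 direction rests. Tet1 was not analysed here. Genes at least 2-fold away from all other arrays numbered 12 on the knockdown array with PRDM14, 7 on the knockdown array, 27 on the scramble array with PRDM14 and 49 on the scramble array. Ifitm3 was 1 of the 27.

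The 3 genes lie in 1 cluster on mouse chromosome 7 in the order Ifitm5, Ifitm2, Ifitm1, Ifitm3, Ifitm6. The RefSeq promoter windows of the members (build GRCm38.p6) are shown because Ifitm2 and Ifitm3 ranked the 4 arrays in the same order and Ifitm1 in another. Each window runs from 250 bases before to 50 bases after the annotated start and is written 5′ to 3′ on the gene's strand. The windows are chr7:141010695-141010994 on the minus strand for Ifitm3, chr7:140955912-140956211 on the minus strand for Ifitm2 and chr7:140967826-140968125 on the plus strand for Ifitm1. Capitals mark each match to GAAANNGAA, the core of the interferon-stimulated response element, searched on both strands.
Ifitm3: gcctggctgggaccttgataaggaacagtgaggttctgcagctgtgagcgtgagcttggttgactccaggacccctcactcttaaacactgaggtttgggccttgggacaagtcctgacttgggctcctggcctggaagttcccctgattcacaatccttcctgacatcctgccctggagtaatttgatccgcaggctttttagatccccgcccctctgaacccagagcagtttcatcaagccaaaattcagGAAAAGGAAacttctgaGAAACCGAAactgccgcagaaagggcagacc
Ifitm2: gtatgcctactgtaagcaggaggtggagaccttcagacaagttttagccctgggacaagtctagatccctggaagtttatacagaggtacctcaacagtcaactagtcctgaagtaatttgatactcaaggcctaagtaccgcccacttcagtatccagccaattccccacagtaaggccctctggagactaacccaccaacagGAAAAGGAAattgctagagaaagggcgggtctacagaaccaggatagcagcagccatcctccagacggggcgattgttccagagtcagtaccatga
Ifitm1: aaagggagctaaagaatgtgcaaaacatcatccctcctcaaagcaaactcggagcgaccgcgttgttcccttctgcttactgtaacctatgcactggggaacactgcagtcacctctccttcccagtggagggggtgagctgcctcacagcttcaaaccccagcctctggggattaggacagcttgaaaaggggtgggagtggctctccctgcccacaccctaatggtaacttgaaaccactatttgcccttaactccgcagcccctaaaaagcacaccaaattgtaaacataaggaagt

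The Ifitm3 window held 2 such matches, at positions 3 to 11 and 20 to 28 counted from the start site, and the Ifitm2 window held 1, at -46 to -38. The Ifitm1 window held 0. Of 32841 promoter windows of that length in the RefSeq table, 8.56% held at least 1. Ifitm2 and Ifitm3 also shared 4 identical runs of at least 10 bases in the same order, of which the longest, caggaaaaggaaa, contains the Ifitm2 match and the first of the 2 Ifitm3 matches. Ifitm1 shared 0 such runs with either gene. A match to TTCNNNGAA, the gamma-activated sequence bound by STAT factors, stood in the Ifitm3 window at 14 to 22, overlapping the second element, and 8.30% of all windows held one. The BMP SMAD element GGCGCC and the PRDM14 motif GGTCTCTAA had 0 matches in the 3 windows, against 11.9% and 0.256% of all windows. The E-box CANNTG, which 72.3% of windows held, was matched in the Ifitm3 window alone of these 3. The windows held 5, 4 and 5 CpG dinucleotides for Ifitm3, Ifitm2 and Ifitm1, where the median of all windows was 7. DNA methylation was not measured in these data, and a match of letters is not evidence of binding.

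Ifitm3, whose product acts mainly in endosomes, showed the widest range of the family. It read 8.27 on the knockdown array with PRDM14, 8.95 on the knockdown array, 10.26 on the scramble array with PRDM14 and 7.81 on the scramble array. The scramble array with PRDM14 was thus the highest, by 1.30 over the knockdown array, and the scramble array was the lowest. The knockdown array lay 0.69 above the knockdown array with PRDM14, which lay 0.46 above the scramble array.

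Ifitm2, whose protein is closely related to IFITM3, read 8.73 on the knockdown array with PRDM14, 8.88 on the knockdown array, 9.41 on the scramble array with PRDM14 and 8.54 on the scramble array. The order of the arrays was the same as for Ifitm3, an order found in 5.04% of the 10519 genes above the filter on at least 1 array. The steps were smaller: the highest array was 0.53 above the next, and the other 3 lay within steps of 0.15 and 0.18. Probe sequences were not used here, and whether transcripts of 1 member bound the probes of another was not tested.

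Ifitm1, whose protein is found mainly at the cell surface, read 10.71 on the knockdown array with PRDM14, 9.84 on the knockdown array, 10.98 on the scramble array with PRDM14 and 10.68 on the scramble array. Here the knockdown array stood alone at the low end, 0.83 below the scramble array. The scramble array and the knockdown array with PRDM14 differed by 0.03. That order of arrays was found in 3.80% of the genes above the filter. In a bulk sample, fewer cells that express a gene and less RNA per cell cannot be told apart.

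**Figure D1:**
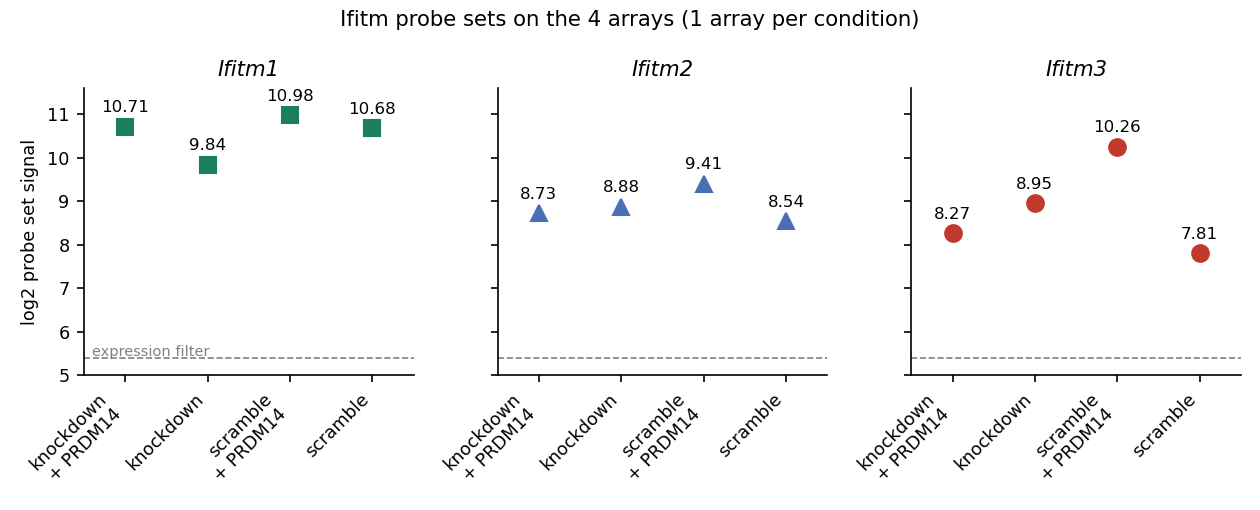
Log2 probe set signal of Ifitm1, Ifitm2 and Ifitm3 (vertical axis) on the 4 arrays (horizontal axis), 1 point per array, with the expression filter of 5.40 dashed. Ifitm3 and Ifitm2 peaked on the scramble array with PRDM14, at 10.26 and 9.41, and Ifitm1 was lowest on the knockdown array, at 9.84.

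The scramble array with PRDM14 was first set against the scramble array, to ask what PRDM14 did in cells with unreduced TET1 and TET2. Of the 3 members 1 was called, Ifitm3, at 5.45-fold higher (log2 difference 2.45), where 2.09% of 10366 genes were called in either direction and 1.09% as higher. It was the 8th largest positive difference. Ifitm2 had a difference of 0.87 (1.82-fold) and Ifitm1 one of 0.30 (1.23-fold), both under the 2-fold rule. Differences of at least that size in either direction were found in 3.04% of genes for Ifitm2 and in 24.1% for Ifitm1. All 3 members were above 0 and their differences spread over more than 2 log2 units. As a technical yardstick, probe sets of 1 gene scattered in this difference with an SD of 0.21, pooled over 3106 genes, which covers neither cultures nor arrays.

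In knockdown cells, the array with PRDM14 against the knockdown array, 0 of the 3 members was called, where 0.630% of 10311 genes were, 0.359% as higher and 0.272% as lower. Ifitm3 was lower by 0.69 on the log2 scale (log2 difference -0.69, 1.61-fold), a size reached in either direction by 1.85% of genes. Ifitm2 had a difference of -0.15. Ifitm1 had one of 0.87 (1.82-fold), and 0.902% of genes differed by at least as much. The family thus split, with Ifitm1 above 0 and Ifitm2 and Ifitm3 below it. The yardstick between probe sets was 0.14, close to the Ifitm2 difference.

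The knockdown array was next compared with the scramble array, both without PRDM14. Ifitm3 was 2.21-fold higher on the knockdown array (1.14), the 1 member called, where 1.06% of 10351 genes were called and 0.618% as higher. Ifitm2 had a difference of 0.33. Ifitm1 went the other way at -0.83 (1.78-fold lower), under the 2-fold rule, with 1.81% of genes at least as far from 0. This comparison and the PRDM14 comparison in scramble cells subtract the same scramble array, so the higher Ifitm3 value in both is not 2 separate measurements.

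Under PRDM14, the knockdown array was set against the scramble array, a comparison that does not use the scramble array without PRDM14. Ifitm3 was 3.97-fold lower in the knockdown (-1.99), where 1.10% of genes were called and 0.475% as lower. It was the lowest of the 10322 differences, each taken from a gene's brightest probe set. A less bright probe set of the stem cell marker Klf4 gave -2.24. Ifitm2 had a difference of -0.68 (1.60-fold) and Ifitm1 one of -0.27, both under 2-fold. Differences at least that large were found in 2.98% and 18.4% of genes. All 3 members were below 0, in the same order of size as in the PRDM14 comparison of scramble cells, which uses the same scramble array with PRDM14.

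**Figure D2:**
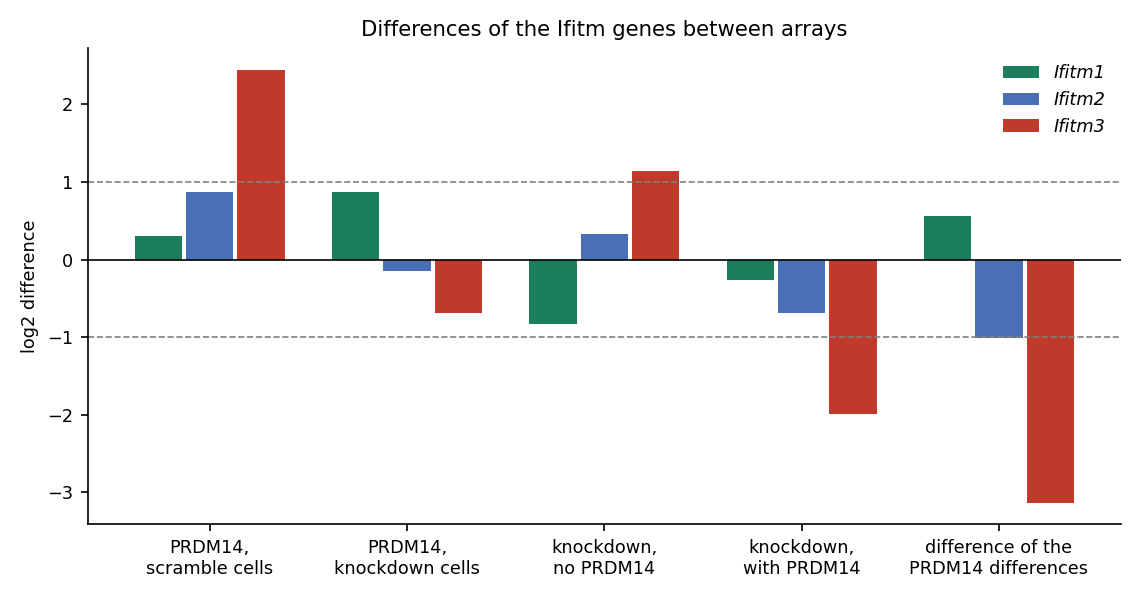
Log2 differences (vertical axis) of the 3 Ifitm genes in the 4 comparisons and in the difference of the 2 PRDM14 differences (horizontal axis), 1 bar per gene, with dashed lines at 2-fold. Ifitm3 ranged from 2.45 with PRDM14 in scramble cells to -3.13 for the difference of differences, and Ifitm1 lay on the other side of 0 from Ifitm3 in the PRDM14 comparison of knockdown cells and in the knockdown comparison without PRDM14.

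The dependence of the PRDM14 difference on the knockdown was taken as the knockdown cells' difference minus that of scramble cells. For Ifitm3 it was -3.13, the 3rd most negative of 10519 genes, where 1.29% of genes were called on the negative side, 0.979% on the positive side and 2.27% in all. For Ifitm2 it was -1.01, just past the 2-fold rule, and -0.97 after quantile normalization, just short of it. For Ifitm1 it was 0.56, of the opposite sign and under the rule. Of the 113 genes called higher with PRDM14 in scramble cells, 34 (30.1%) had a difference below 0 in knockdown cells, and Ifitm3 was 1 of 9 at or below -0.5. Seen from the knockdown, 8 genes were at least 2-fold higher without PRDM14 and at least 2-fold lower with it, and Ifitm3 was among them. With 1 array per condition this difference of differences was not tested.

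**Figure D3:**
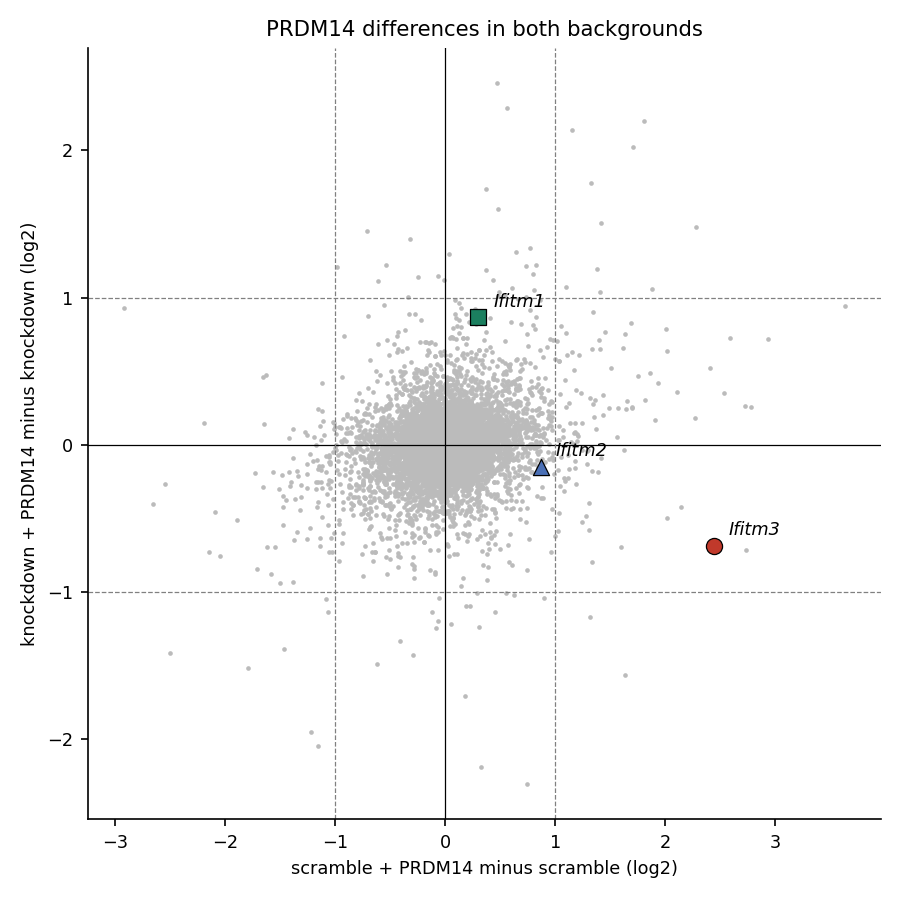
PRDM14 difference in knockdown cells (vertical axis, log2) against that in scramble cells (horizontal axis, log2) for the 10519 genes above the filter on at least 1 array, 1 grey point per gene, with dashed lines at 2-fold. Ifitm3 lies at the lower right (2.45 and -0.69), Ifitm2 is nearer the centre on the same side (0.87 and -0.15), and Ifitm1 is above 0 on both axes (0.30 and 0.87).

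An additive model was the one fit across all genes that the arrays allowed, with the interaction taken as error and 1 residual degree of freedom. The average PRDM14 effect was 0.88 ± 0.88 (SE) for Ifitm3, 0.36 ± 0.30 for Ifitm2 and 0.58 ± 0.18 for Ifitm1. The limma adjusted p was 0.85, 0.82 and 0.78 in that order. The average knockdown effect was -0.42 ± 0.88 for Ifitm3, -0.17 ± 0.30 for Ifitm2 and -0.55 ± 0.18 for Ifitm1, with adjusted p of 0.95, 0.94 and 0.80 in limma. No member passed, nor did any of the 10519 genes (0.00%). At an unadjusted p under 0.05 limma counted 638 genes (6.07%) for PRDM14 and 604 (5.74%) for the knockdown. Ifitm3 had the highest average PRDM14 effect of the 3 members and the widest error, with opposite signs in its 2 PRDM14 differences.

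Genes with the most similar profile were found by the root mean square (RMS) difference over the 4 arrays after each gene's mean was subtracted, among 409 genes that spanned at least 2-fold. The nearest to Ifitm3 was Upp1, which encodes uridine phosphorylase, at an RMS of 0.26. Its signals were 9.00 on the knockdown array with PRDM14, 9.42 on the knockdown array, 10.28 on the scramble array with PRDM14 and 8.13 on the scramble array. It was followed by the protease inhibitor gene Spink1 (0.35), P3h4 of the collagen prolyl hydroxylase complex (0.38), the sphingomyelin synthase gene Sgms2 (0.40), the efflux pump gene Abcb1b (0.42) and the autophagy receptor gene Calcoco2 (0.42). Spink1 was below the filter on 3 of the 4 arrays, and Sgms2 was below it on the scramble array, at 4.81. All 6 were highest on the scramble array with PRDM14.

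Ifitm1 had other neighbours. The nearest were Bcor, a corepressor gene, at an RMS of 0.08 and the exchange factor gene Mcf2 at 0.10. The signalling adaptor gene Gab1 (0.13), the myosin gene Myo10 (0.16), the zinc finger factor gene Zic2 (0.18) and the chromatin remodeller gene Smarca1 (0.20) followed, and all 6 were lowest on the knockdown array. Bcor was itself below the filter there, at 4.89. Between members the RMS was 0.94 for Ifitm1 and Ifitm3, 0.60 for Ifitm2 and Ifitm3 and 0.45 for Ifitm1 and Ifitm2. By this measure, which weighs the size of the steps, Ifitm2 was nearer to Ifitm1 than to Ifitm3, although it shared the order of arrays with Ifitm3. Ifitm1 was the 173rd nearest gene to Ifitm3. Ifitm2 spanned less than 2-fold and was not ranked. With 4 points per gene, such likeness is a description.

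**Figure D4:**
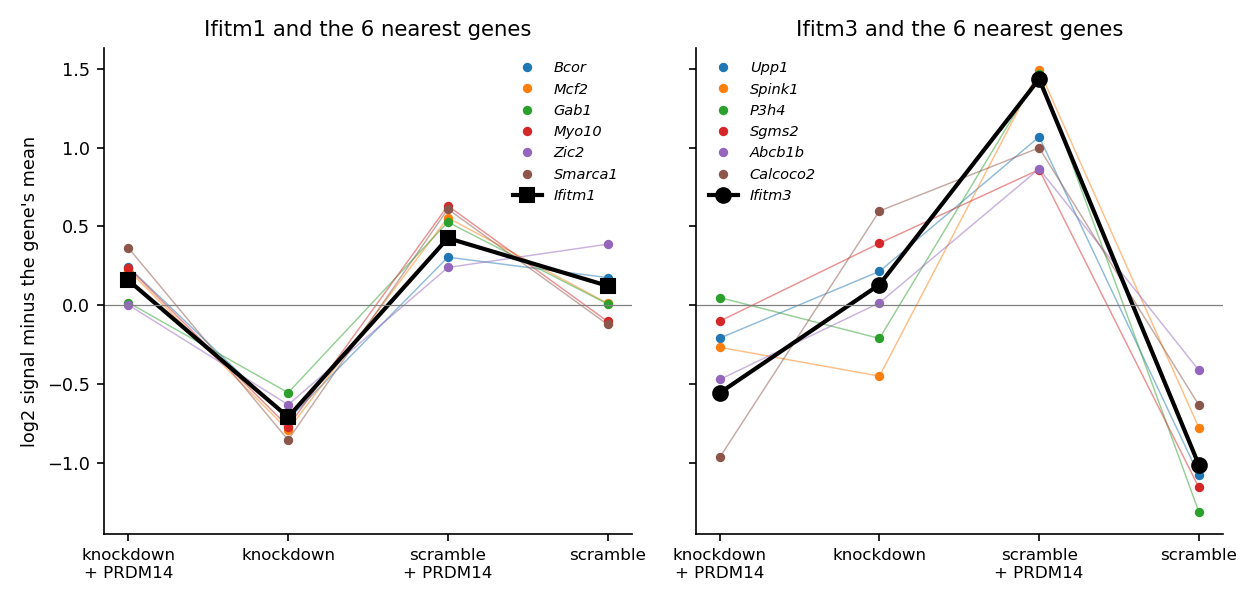
Log2 signal minus the gene's mean (vertical axis) on the 4 arrays (horizontal axis) for Ifitm1 (left) and Ifitm3 (right), in black, and their 6 nearest genes, in colour, with lines joining the points of a gene. The left profiles share a low knockdown array, with an RMS of 0.08 to 0.20 from Ifitm1, and the right profiles share a high scramble array with PRDM14, with an RMS of 0.26 to 0.42 from Ifitm3.

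Genes beside the cluster on chromosome 7 stayed under 2-fold. Among the 4 measured protein-coding genes on either side, 0 of 8 was called in any comparison, and 4 were above the filter: Pgghg, Psmd13, B4galnt4 and Sigirr. Of all genes, 0.630 to 2.09% were called in a comparison, so 0 of 8 does not set these neighbours apart. The proteasome gene Psmd13 had 0.39 with PRDM14 in scramble cells and 0.44 in the knockdown without PRDM14. Its differences were -0.15 with PRDM14 in knockdown cells and -0.10 in the knockdown under PRDM14. Those 4 signs are the ones seen for Ifitm3 and Ifitm2, and Pgghg had them as well, at differences of at most 0.26 in size. The share of all genes with these signs was not counted, so the match does not set Psmd13 and Pgghg apart. B4galnt4 and Sigirr had other signs, at 0.11 and 0.06 with PRDM14 in knockdown cells. In the knockdown without PRDM14 they had -0.34 and -0.20. The first Psmd13 value was above that of Ifitm1 (0.30) and the second above that of Ifitm2 (0.33), while each was smaller in size than that of Ifitm3. Ifitm6, the next family member in the cluster, read 3.80 to 3.90, below the filter. Of the relatives outside the cluster, Ifitm7 read 6.26 to 6.38 and differed by at most 0.12 in any comparison, and Ifitm10 was below the filter.

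The list of other interferon-stimulated genes held no gene past the 2-fold rule. Of 59 listed genes 50 were measured and 27 were above the filter, and 0 of the 27 was called in any of the 4 comparisons. Of all genes, 0.630 to 2.09% were called in a comparison, so 0 of 27 does not set the list apart. The median of the 27 was 0.09 with PRDM14 in scramble cells and -0.04 in the knockdown under PRDM14. The medians of all genes tested were 0.002 and 0.003. The largest differences with PRDM14 in scramble cells were 0.63 for the apoptosis factor gene Xaf1, 0.49 for the RNA sensor gene Ddx58 and 0.45 for Trim25, a ubiquitin ligase gene. A second probe set of Xaf1, below the filter, gave -0.06. Trim25 had -0.66 in the knockdown under PRDM14 and -0.25 with PRDM14 in knockdown cells. H2-K1 was 4th in size with PRDM14 in scramble cells, at -0.38. It had 0.39 with PRDM14 in knockdown cells, -0.44 in the knockdown without PRDM14 and 0.33 in the knockdown under PRDM14. Each of these signs was the opposite of that of Ifitm3. Another H2-K1 probe set above the filter gave -0.36, -0.12, -0.34 and -0.10 in that order. Ifit1, Ifit2, Ifit3, Mx1 and Oasl2, which respond strongly to interferon, were below the filter on all 4 arrays. Other listed genes of the same families were above it on all 4, among them Mx2 (5.96 to 6.16), Oasl1 (6.60 to 6.69), Oas2 and Oas3. Rsad2 was above it as well.

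The same held for the genes upstream of them. Of 23 interferon receptor and signalling genes 22 were measured and 14 were above the filter, and 0 was called in any comparison. With 0.630 to 2.09% of all genes called, 0 of 14 does not set this list apart either. Differences of the 14 lay between -0.41, for the phosphatase gene Ptpn6, and 0.30, for the receptor gene Ifnar2, with PRDM14 in scramble cells. The receptor gene Ifnar1 differed by at most 0.10 and the kinase gene Tyk2 by at most 0.19 in any comparison. Irf7 and Irf9 were below the filter, whereas Irf1 (7.59 to 7.91) and Irf3 (6.87 to 7.03) were above it. Of 8 measured interferon genes 2 were above the filter and 0 was called. Ifna2 read 6.58 to 6.74, and Ifna1 read 5.36 to 5.53, close to the filter. Ifnb1 read 4.60 to 4.73, below it.

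Proteins known from human or mouse work to modify or bind IFITM3 were encoded by 16 listed genes, of which 15 were measured, all above the filter. Setd7, a methyltransferase known to act on human IFITM3, was called with PRDM14 in scramble cells, 1 of 15 genes, against 2.09% of all genes. It read 7.83 on the knockdown array with PRDM14, 7.78 on the knockdown array, 6.31 on the scramble array with PRDM14 and 7.73 on the scramble array. It was thus low on the array where Ifitm3 was high, with differences of -1.42 with PRDM14 in scramble cells and 1.52 in the knockdown under PRDM14. Its second probe set, below the filter, gave -0.11 and 0.01. The palmitoyltransferase gene Zdhhc2 had 1.01 in the knockdown under PRDM14. There Zdhhc2 and Setd7 were called, 2 of 15 genes, against 1.10% of all genes. The other Zdhhc2 probe sets, below the filter, gave 0.24, 0.88 and 0.17 in that comparison. The ubiquitin ligase gene Nedd4 differed by at most 0.22 in any comparison.

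Among BMP and SMAD genes, Id1 and Id2, inhibitors of basic helix-loop-helix factors and targets of BMP signals, were called higher with PRDM14 in scramble cells, 2 of 19 genes tested, at 3.63 and 2.54, where 1.09% of all genes were called higher. Id3 had 1.00, just short of 2-fold, there and 1.03 in the knockdown without PRDM14. The knockdown without PRDM14 had 4 of 20 called higher, against 0.618% of all genes. They were Id1, Id2, Id3 and the inhibitory Smad6 (1.14). Smad6 was above the filter on the knockdown array alone, and had -0.82 with PRDM14 in knockdown cells. Id4 was not called, at 0.07, although another of its probe sets gave 1.18. In knockdown cells the PRDM14 difference was 0.94 for Id1, 0.35 for Id2 and -0.62 for Id3. Under PRDM14 the knockdown differences were -0.41, -0.35 and -0.59, each smaller in size than that of Ifitm3. The list median was 0.04 with PRDM14 in scramble cells, against 0.002 for all genes tested.

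Of the primordial germ cell genes, 6 of 14 tested were called lower and 0 higher with PRDM14 in scramble cells, where Ifitm3 was higher and 1.00% of all genes were called lower. Among them were Dppa3 at -2.51, Tfap2c at -1.79 and Ddx4 at -1.41. The list as a whole was split, with 8 genes below 0, 6 above and a median of -0.03. In the knockdown under PRDM14, Dppa3 (1.95) and Ddx4 (1.25) were called higher, where 0.630% of all genes were and Ifitm3 was lower, and the list lay 7 below 0 and 7 above. In knockdown cells Tfap2c (-1.51), Dppa3 (-1.41) and Kit (-1.05) were called lower with PRDM14, against 0.272% of all genes. There 12 of the 14 genes were below 0, with a median of -0.19, the same sign as the Ifitm3 value of -0.69.

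**Figure D5:**
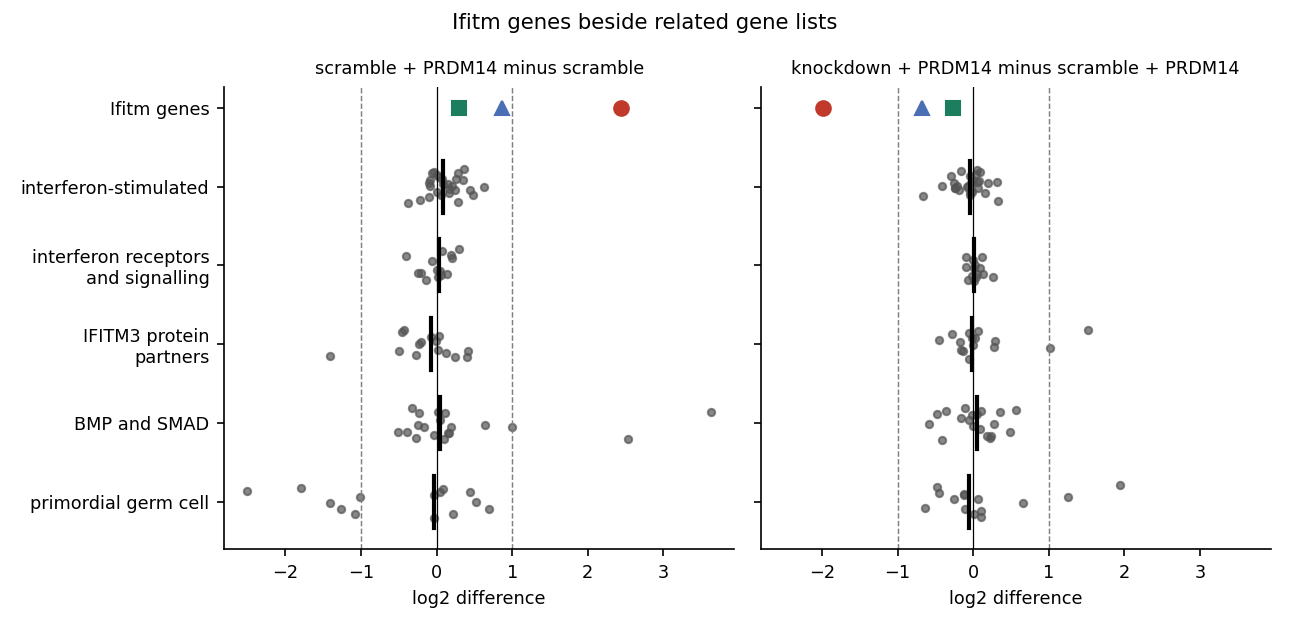
Log2 differences (horizontal axis) of the Ifitm genes (square Ifitm1, triangle Ifitm2, circle Ifitm3) and of 5 gene lists (grey points, genes above the filter; black bars, medians; vertical scatter has no meaning) for PRDM14 in scramble cells (left) and the knockdown under PRDM14 (right), with dashed lines at 2-fold. Ifitm3 lies at 2.45 and -1.99, outside the range of the 27 interferon-stimulated genes (-0.38 to 0.63 and -0.66 to 0.33).

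The 9 stem cell markers averaged 9.94 on the knockdown array with PRDM14, 10.00 on the knockdown array, 10.28 on the scramble array with PRDM14 and 10.09 on the scramble array. Their mean was thus highest on the array where the 3 Ifitm genes were highest. In the knockdown under PRDM14, 7 of the 9 were below 0, with a median of -0.25, a value near the Ifitm1 difference of -0.27. In the knockdown without PRDM14, 7 of the 9 were also below 0, with a median of -0.16. There Ifitm3 had 1.14 and Ifitm2 0.33, both above 0, and Ifitm1 had -0.83. The fibroblast list averaged 4.99 on the knockdown array with PRDM14, 4.95 on the knockdown array, 5.04 on the scramble array with PRDM14 and 5.05 on the scramble array. The endothelial and blood list averaged 5.18, 5.07, 5.17 and 5.16 on the same arrays. Single members differed more, such as the fibronectin gene Fn1 at -1.43 in the knockdown without PRDM14 and the endothelial receptor gene Tek at 1.04 with PRDM14 in knockdown cells. Of the stem cell markers Klf4 was called in the knockdown under PRDM14, at -1.21. Its other probe set, above the filter on all 4 arrays, gave -2.24 in that comparison. Whether other cells, or the state of the stem cells, had a part in the Ifitm values was not tested.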

How the data were processed

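The authors deposited log2 probe set signals for 4 arrays. Base 2 was taken from their span, 2.78 to 13.2, and the near-equal quartiles of the arrays point to a common scaling. The submitters' processing notes name Affymetrix Expression Console. Its version, how probes were summarised and how background was corrected is not given in the sources used here. Labelling used 150 ng of RNA, per the labels. Of 45141 probe sets, 104 were controls, 28898 had 1 gene in the platform annotation, 551 several and 15588 none. A gene was represented by its brightest probe set. The members and lists were chosen with earlier results of these data known. Named genes were the members, in each list the 4 genes furthest from 0 per comparison, the 6 nearest profiles of members spanning at least 2-fold, and the 4 measured neighbours on either side. Genes such as Ifit1, Irf7, Ifnar1, Tyk2 and Nedd4 were named for their role after their values were seen. The additive model used limma 3.58.1 in R 4.3.3 (lmFit, eBayes with trend, Benjamini-Hochberg over all genes) and was tested on simulated data. Promoter sequences came from RefSeq (GRCm38.p6), matched for 3 of 3 members by gene identifier, and were searched in Python 3.11.15. Alternatives were other thresholds, filters, probe set rules and scalings.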

Additional observations from a re-analysis of the deposited data

Results flagged for a closer look

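Several genes had differences of opposite sign in the 2 backgrounds, each from 1 array per condition, so the reversal itself was not tested. Ifitm3 was at 2.45 with PRDM14 in scramble cells and at -0.69 in knockdown cells, and its knockdown difference was 1.14 without PRDM14 and -1.99 with it. Ifitm2 showed the same signs at smaller size, 0.87 and -0.15 for PRDM14 and 0.33 and -0.68 for the knockdown. The PRDM14 pair and the knockdown pair of a gene come from the same 4 values and are not separate evidence. Among the genes near Ifitm3 in profile, Calcoco2 was past 2-fold on both sides, at 1.63 and -1.56 for PRDM14 and 1.23 and -1.96 for the knockdown. The knockdown difference also turned past 2-fold for P3h4 (1.10 without and -1.42 with PRDM14) and Upp1 (1.29 and -1.28). These 3 were found by their likeness to Ifitm3, so their reversal follows from the choice.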

How the results depend on the processing

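No paired analysis was possible because each condition had 1 array, and for the same reason no array could be left out. Every member difference kept its sign under all alternatives run, and none moved by more than 0.052. Each member had 1 probe set, above the filter on all 4 arrays. The other thresholds, filters and probe set rules therefore could not change its values, and only quantile normalization and housekeeping centring could. At a 1.5-fold threshold 5 member differences under 2-fold were called: Ifitm2 with PRDM14 in scramble cells (0.87), Ifitm1 (0.87) and Ifitm3 (-0.69) with PRDM14 in knockdown cells, Ifitm1 in the knockdown without PRDM14 (-0.83) and Ifitm2 in the knockdown under PRDM14 (-0.68). At a 3-fold threshold Ifitm3 in the knockdown without PRDM14 (1.14) and the Ifitm2 dependence (-1.01) were no longer called, and the Ifitm2 dependence was also short of 2-fold after quantile normalization, at -0.97. The share of all genes called, in the order of the 4 comparisons and the dependence, was 8.19, 2.81, 5.09, 4.34 and 9.10% at 1.5-fold and 0.502, 0.126, 0.203, 0.116 and 0.466% at 3-fold. When probe sets were averaged per gene, 43 genes were called for PRDM14 in knockdown cells, against 65. In limma the adjusted p of the members' average effects lay between 0.76 and 0.96 under all alternatives run. Housekeeping means differed by at most 0.046 between arrays. Background was not measured per probe set, so the compression of low signals cannot be assessed.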

Other observations

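Of 12 listed antiviral genes 10 were measured and 7 were above the filter, the 3 Ifitm members among them. Outside the Ifitm family Zc3hav1 alone passed the 2-fold rule. It was called lower with PRDM14 in scramble cells, 1 of the 7, where 1.00% of all genes were. In the knockdown under PRDM14 it was called higher, again 1 of the 7, where 0.630% of all genes were. Zc3hav1, which encodes a zinc finger protein that binds viral RNA, read 7.50 on the knockdown array with PRDM14, 8.44 on the knockdown array, 6.28 on the scramble array with PRDM14 and 7.78 on the scramble array. It was lowest on the array where Ifitm3 was highest. Its difference was -1.50 with PRDM14 in scramble cells, -0.94 with PRDM14 in knockdown cells and 1.22 in the knockdown under PRDM14. Its other probe sets gave 0.004 and -0.13 for PRDM14 in scramble cells, at signals near or below the filter. In the WNT list Myc was called higher, at 1.32 with PRDM14 in scramble cells, 1 of 9 genes tested, against 1.09% of all genes. Ccnd1 had 0.81.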
